A study of Mus musculus with 22 samples.

Results

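Cartpt and 7 genes of peptides made mainly in the hypothalamus, Hcrt, Pmch, Trh, Agrp, Gal, Pomc and Nts, were followed through RNA-seq of the right brain hemisphere of 22 mice. These 8 genes were taken by their symbols from the 24421 genes of a male and a female count table. The mice were of the strain C57B6/J OlaHsd, and their rank was set in the tube test, in which cage mates are set against each other in a tube until 1 of them backs out, at 10 to 12 weeks of age. There were 4 groups, 7 dominant males, 7 submissive males, 4 dominant females and 4 submissive females, without any drug treatment or engineered allele named in the labels. Library names place a dominant and a submissive mouse in the same cage, here called cages 1 to 7 in males and 1 to 4 in females after their replicate numbers. Female cages 3 and 4 are named there as groups, Gr1 and Gr2, without a cage number. By the study's methods, females of middle rank were put together anew and tested again, and neither the labels nor the methods tell which females these were, so rank may rest on a second round of testing in some of them. Each library is 1 hemisphere, so hypothalamus, midbrain and pituitary remnants are measured together with cortex and cerebellum. The members were chosen by name, and Cartpt was selected on its level in females, because it had already been seen to be lower in dominant than in submissive females of these data, so that difference is described here and not tested.

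Neuropeptides are cut from longer precursor proteins and released from dense-core vesicles to act on G protein-coupled receptors. In the hypothalamus, Pomc neurons, many of which also make the Cartpt product CART, restrain feeding through melanocortin receptors, while Agrp blocks these receptors and drives feeding. Neurons of the lateral hypothalamus make either orexin from Hcrt, which keeps animals awake, or melanin-concentrating hormone from Pmch, which promotes feeding and sleep. CART is also made outside the hypothalamus, among other places in the centrally projecting Edinger-Westphal nucleus of the midbrain and in the nucleus accumbens.

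In the mm10 build, Cartpt lies on the minus strand at chr13:99898483-99900683, with 875 exon bases in 3 exons and none shared with another gene. Its promoter is shown because Cartpt is the gene the comparisons turn on. It runs from 250 bases before to 50 bases after the start site, at chr13:99900634-99900933 on the minus strand, as given by RefSeq for GRCm38.p6, and the capitals mark a cAMP response element, CRE, TGACGTCA.
Cartpt promoter: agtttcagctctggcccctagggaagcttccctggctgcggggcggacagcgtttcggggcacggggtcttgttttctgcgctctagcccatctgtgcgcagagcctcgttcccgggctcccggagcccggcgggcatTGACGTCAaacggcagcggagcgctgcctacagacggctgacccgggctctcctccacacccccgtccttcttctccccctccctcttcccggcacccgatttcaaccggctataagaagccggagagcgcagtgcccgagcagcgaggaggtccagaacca
The element starts at base -112 from the start site, at chr13:99900788-99900795. Its letters, which read the same on both strands, occur in 588 of 32851 promoters of this length (1.79%), and among the 7 members with a promoter sequence only that of Cartpt held them. The letters TATAAA, searched on both strands, were present in the promoters of Hcrt, Pmch and Pomc and in 13.6% of all promoters, and the letters CACGTG in none of the 7 and in 7.15% of all. Agrp had no promoter sequence in the table used.

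Cartpt transcripts come in a long and a short form, which differ by 39 coding bases, shown here because the count per gene joins both forms. The stretch lies at chr13:99900041-99900079 on the minus strand of the GRCm38 build, in the coding part of an exon.
Cartpt long-form stretch: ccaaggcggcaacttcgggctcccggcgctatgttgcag
The other members were Hcrt at chr11:100761693-100762931, Pmch at chr10:88091072-88092374, Trh at chr6:92242061-92244650, Agrp at chr8:105566695-105579845, Gal at chr19:3409917-3414457, Pomc at chr12:3954945-3960643 and Nts at chr10:102481756-102490418. Of the 748 exon bases of Pmch, 434 are shared with Parpbp on the opposite strand. The strand setting of the counting is not stated, so the Pmch level is uncertain by reads of that gene. The other 7 members share no exon base with another gene.

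Between 12403943 and 16488762 reads were counted on genes per library. Levels are given as CPM, read counts relative to a library size adjusted by TMM within each table, and 7 of the 8 members passed the expression filter in each table, the exception being Agrp. The brain labels held, since all 6 of the general brain cell markers (Snap25, Slc17a7, Gad1, Gfap, Mbp and Cx3cr1) were counted in all 22 libraries. Of 14 further hypothalamic markers, between 9 and 14 were counted in a library, and their summed level ran from 16.9 to 28.4 CPM in males, from 8.88 to 25.9 CPM in dominant females and from 20.8 to 30.3 CPM in submissive females. Of 8 pituitary markers none passed the filter, and their sum stayed between 0.0659 and 1.16 CPM outside 1 library, submissive female 3, where it was 16.6 CPM. In these bulk samples, fewer cells of a type and less RNA per cell cannot be told apart.

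Per kilobase of exon, Pmch was the most abundant member in both tables, with 35.8 ± 5.04 CPM per kb (SD, n = 14) in males and 35.6 ± 5.68 (SD, n = 8) in females. Cartpt came next, with 18.1 ± 6.03 CPM per kb in males and 15.5 ± 7.29 in females, and lay below Pmch in 22 of 22 libraries. Nts, with 8.68 ± 0.919 CPM per kb in males and 8.55 ± 1.01 in females, and Hcrt, with 8.87 ± 1.29 and 7.97 ± 1.90, did not differ beyond their spread, and Nts was the higher of the pair in 13 of 22 libraries. Trh followed with 6.27 ± 0.528 CPM per kb in males and 5.84 ± 1.31 in females. Gal and Pomc were low, and Gal was above Pomc in 13 of 14 males and in 4 of 8 females. Gal had 2.50 ± 0.548 CPM per kb in males and 1.58 ± 0.569 in females, against 1.48 ± 0.509 and 1.87 ± 1.28 for Pomc. Without submissive female 3 the female mean of Pomc was 1.43 CPM per kb, below that of Gal at 1.56. Agrp was the lowest of the members, with 0.247 ± 0.147 CPM per kb in males and 0.230 ± 0.149 in females, that is 1 to 7 reads per library.

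**Figure D1:**
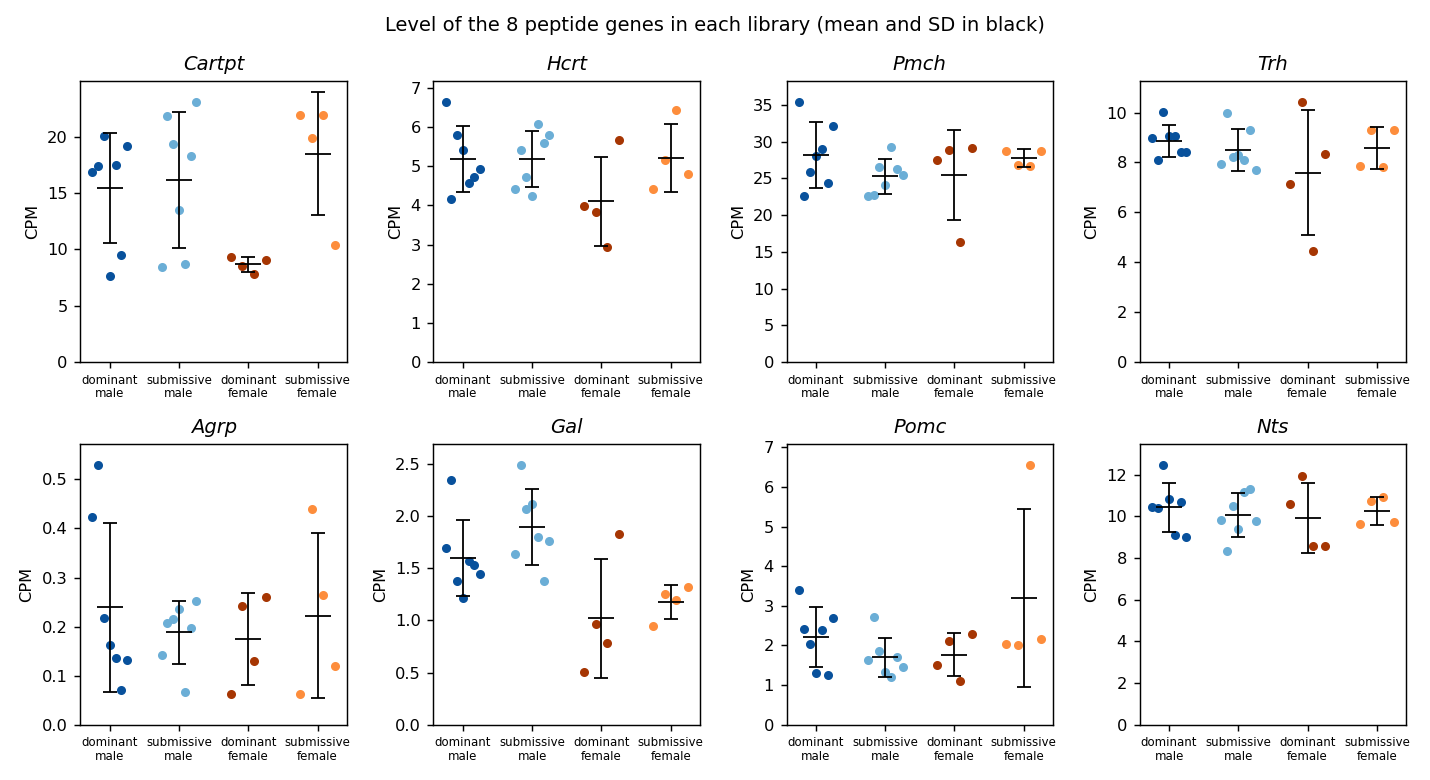
Level of the 8 peptide genes in CPM (vertical axis, linear, from 0) in each library of the 4 groups, with 1 point per library and the mean and SD in black. The 4 dominant females lie between 7.84 and 9.29 CPM of Cartpt, below all submissive females, while the ranks overlap for the 7 other genes.

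The first comparison asked whether the peptide genes differ between dominant and submissive mice. In females, Cartpt, the precursor of CART, had 9.29, 8.49, 7.84 and 9.08 CPM in dominant females 1 to 4 and 21.9, 19.8, 21.9 and 10.4 CPM in submissive females 1 to 4. The dominant mouse was the lower one in 4 of 4 cages and the ranks did not overlap, but in female cage 4 both mice were low. Ranks did not overlap for 5.58% of the 14865 genes tested in females, and every dominant female was below every submissive female for 2.66%. The log2 fold change of Cartpt, dominant over submissive, was -1.09 (SE, the standard error of the edgeR fit, 0.165), from means of 8.67 ± 0.651 and 18.5 ± 5.49 CPM (SD, n = 4 each). It was -1.23 within female cages 1 and 2, -0.92 within cages 3 and 4, and lay between -1.29 and -0.99 when any 1 female was left out. These values describe the contrast by which Cartpt was chosen, and no p is given.

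Of 6 markers of the midbrain and raphe, 4 were tested for rank in females, and 2 of them, Tph2 and Slc6a4, were called lower in dominant females (0.0202% of all genes). Both calls were lost under several alternatives given below, among them edgeR's robust prior (adjusted p = 0.347 and 0.298). The summed level of the 6 (Ucn, Tph2, Slc6a4, Fev, Th and Slc6a3) was 24.1 to 38.4 CPM in dominant and 39.5 to 60.7 CPM in submissive females, without overlap, and 5 of the 6 were counted in each of these libraries, the remaining one, Fev or Ucn, being at 0 reads. Without Tph2 and Slc6a4 the sum was 21.9 to 30.9 CPM in dominant and 28.4 to 33.3 CPM in submissive females, with overlap. Th, the enzyme of dopamine synthesis, had a log2 fold change of -0.27 (adjusted p = 0.276, edgeR) and Slc6a3, the dopamine transporter, one of -0.081 (adjusted p = 0.839, edgeR). Ucn, a peptide of the Edinger-Westphal nucleus, had 0 to 3 reads in dominant and 0 to 11 in submissive females. The part of tissue make-up in the Cartpt difference was not tested.

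In males, Cartpt was spread as widely within a rank as between the female ranks. It ran from 7.61 CPM (median 17.4) to 20.04 CPM in dominant males and from 8.42 CPM (median 18.3) to 23.1 CPM in submissive males, and the ranks overlapped. Ranks did not overlap for 1 of the 14737 genes tested in males (0.00679%, with every dominant male below every submissive one). The dominant male was the higher one in 3 of 7 cages, with log2 ratios between cage mates from -0.95 in cage 6 to 1.01 in cage 5. The rank difference was -0.065 on the log2 scale (SE 0.234, adjusted p = 0.9999 in the edgeR test over all genes). Its sign turned when dominant male 4 or 6 or submissive male 2 or 7 was left out, with 0.046 as the highest value. The female minus male rank difference of Cartpt, which holds the contrast that chose it, was -1.02 (SE 0.373) and is given without a test.

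**Figure D2:**
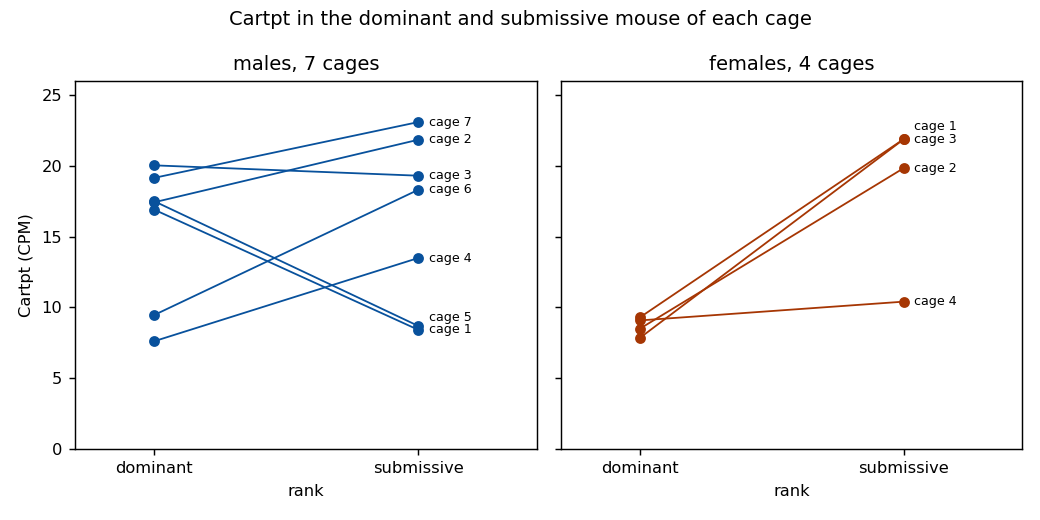
Cartpt in CPM (vertical axis, linear, from 0) in the dominant and the submissive mouse of each cage, joined by a line, for 7 male and 4 female cages labelled at the submissive mouse. All 4 female lines rise towards the submissive mouse, that of cage 4 only from 9.08 to 10.4 CPM, while 3 male lines fall and 4 rise.

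None of the other 6 members that passed the filter was called for rank in either table. Over all genes, 0 of 14737 were called in males (0%; 194 genes, 1.32%, had an unadjusted p under 0.05, and DESeq2 called 0 too, with 119 under an unadjusted 0.05). In females, 14 of 14865 genes were called, or 0.0942%, and 1563 (10.5%) had an unadjusted p under 0.05. With the cage as a replicate block 36 genes were called, and leaving out submissive female 1 or 3 left 0 (1426 and 1356 at an unadjusted p under 0.05). In males, 4 of these 6 members had a positive fold change and 2 a negative one, with a median of 0.055 (all genes tested, -0.0015). In females all 6 were negative, with a median of -0.19 (all genes tested, -0.0020), and 1 of the 6, Pomc, had an unadjusted p under 0.05. Without dominant female 3, 3 of the 6 were negative and the median was -0.050, and within cages 1 and 2 these were 3 and -0.063.

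Hcrt, the orexin precursor, had 3.98, 3.82, 2.94 and 5.68 CPM in dominant against 4.43, 5.15, 6.43 and 4.81 CPM in submissive females. Of the dominant females 3 lay below all submissive ones, but that of cage 4 lay above 3 of them. The log2 fold change was -0.34 (SE 0.166, adjusted p = 0.485 by the edgeR test), with -0.21 without dominant female 3, -0.23 without submissive female 3 and -0.53 without dominant female 4. In males Hcrt ran from 4.17 CPM (median 4.94) to 6.65 CPM in dominant against from 4.23 CPM (median 5.41) to 6.08 CPM in submissive mice, and the log2 fold change was -0.0064 (SE 0.112).

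Pmch, the precursor of melanin-concentrating hormone, had 27.5, 28.9, 16.4 and 29.2 CPM in dominant against 28.8, 26.8, 26.7 and 28.8 CPM in submissive females. Dominant female 3 stood apart from the other 7, and the log2 fold change of -0.12 (SE 0.114, adjusted p = 0.775, edgeR) became 0.037 without it. In males Pmch ran from 22.6 CPM (median 28.1) to 35.4 CPM in dominant against from 22.5 CPM (median 25.5) to 29.3 CPM in submissive mice. Its log2 fold change of 0.16 (SE 0.0881) had an adjusted p of 0.9999 by the edgeR test, and the dominant male was higher in 3 of 7 cages.

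Agrp and Gal both promote feeding, Agrp as the antagonist of melanocortin receptors and Gal as the precursor of galanin. Agrp was 0.239 ± 0.172 CPM in dominant against 0.188 ± 0.0637 CPM in submissive males (SD, n = 7; exact permutation test, two-sided, p = 0.486). In females it was 0.174 ± 0.0939 and 0.222 ± 0.168 CPM (SD, n = 4; exact permutation test, two-sided, p = 0.657, where 4 against 4 can reach 0.0286). Both comparisons rest on 1 to 7 reads per library. Gal had 0.506, 0.970, 0.784 and 1.83 CPM in dominant against 0.949, 1.26, 1.19 and 1.32 CPM in submissive females. Dominant female 4 was the highest of the 8 and the other dominant females were among the lowest, with a log2 fold change of -0.21 (SE 0.302, adjusted p = 0.863, edgeR). In males Gal was 1.598 ± 0.365 CPM in dominant against 1.90 ± 0.364 CPM in submissive mice (SD, n = 7), and the log2 fold change was -0.24 (SE 0.160, adjusted p = 0.9999, edgeR).

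Pomc, the precursor of the melanocortins and of beta-endorphin, had 1.52, 2.12, 1.11 and 2.29 CPM in dominant against 2.02, 2.01, 6.57 and 2.16 CPM in submissive females. Submissive female 3 alone was above 2.29 CPM. That library also held 179 reads (11.9 CPM) of Prl and 62 reads (4.11 CPM) of Gh, the prolactin and growth hormone genes of the pituitary, while Prl was at most 0.588 CPM in the other 7 females, and Pou1f1 and Tbx19, transcription factors of pituitary cells, were at 0 reads in it. Pomc is made in the pituitary as well as in the hypothalamus, and the part of such cells in the value was not tested. The log2 fold change of Pomc in females was -0.83 (SE 0.343, adjusted p = 0.385, edgeR) and -0.23 (SE 0.226, adjusted p = 0.818) without submissive female 3. It was -0.14 within female cages 1 and 2 and -1.33 within cages 3 and 4, the latter with submissive female 3. In males Pomc ran from 1.25 CPM (median 2.38) to 3.40 CPM in dominant against from 1.20 CPM (median 1.64) to 2.70 CPM in submissive mice, with a log2 fold change of 0.39 (SE 0.219, adjusted p = 0.9999, edgeR). The female minus male rank difference of Pomc was -1.22 (SE 0.453, adjusted p = 0.9986, edgeR), and -0.61 (SE 0.359) without submissive female 3. Over all genes, 0 of 15233 were called in this comparison (0%; 505 genes, 3.32%, had an unadjusted p under 0.05, and DESeq2 called 0, with 426 under an unadjusted 0.05).

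Trh, the thyrotropin-releasing hormone gene, had 7.14, 10.4, 4.44 and 8.36 CPM in dominant against 7.85, 9.29, 7.83 and 9.32 CPM in submissive females. Dominant female 3 was again the lowest, and the log2 fold change of -0.17 (SE 0.163, adjusted p = 0.783, edgeR) became 0.013 without it. In males Trh was the steadiest of the members, at 8.87 ± 0.631 CPM in dominant against 8.50 ± 0.826 CPM in submissive mice (SD, n = 7), with a log2 fold change of 0.060 (SE 0.0732). Nts, the neurotensin precursor, had 10.6, 11.9, 8.56 and 8.55 CPM in dominant against 9.62, 10.7, 10.9 and 9.74 CPM in submissive females, so that the dominant mouse was higher in cages 1 and 2 and lower in cages 3 and 4. Its log2 fold change was -0.043 (SE 0.106, adjusted p = 0.928, edgeR) in females and 0.050 (SE 0.0831, adjusted p = 0.9999, edgeR) in males, where it ran from 8.32 to 12.5 CPM. The female value was 0.15 within cages 1 and 2.

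**Figure D3:**
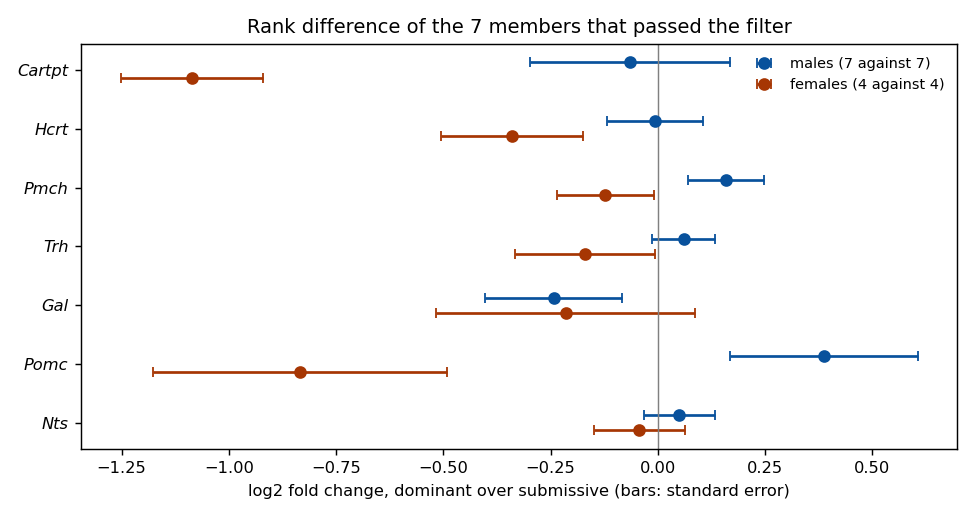
Log2 fold change of dominant over submissive mice (horizontal axis) for the 7 members that passed the filter, in males (blue) and females (red), with the standard error of the edgeR fit as bars. Cartpt in females, by which it was chosen, lies at -1.09, and all 7 female values are below 0, while the male values lie between -0.24 and 0.39.

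The spread of the members within a rank was read on the log2 scale. The within-rank SD of log2 CPM in males was 0.58 for Cartpt (place 114 from the most variable of 14737 genes), 0.43 for Pomc (place 449) and 0.12 for Trh (place 8259), beside a median of 0.13 over all genes. In females the order was another, with an SD within rank of 0.65 for Pomc (place 24 of 14865), 0.50 for Gal (place 165), 0.38 for Trh (place 562) and 0.37 for Cartpt (place 593), beside a median of 0.089 over all genes. The variance of the counts over that expected from counting alone, where 1 is counting error alone, grows with the level of a gene and is given for each gene by itself. It was 26.6 for Cartpt and 2.86 for Pomc in males. In females it went from 13.7 to 0.869 for Cartpt without submissive female 4 and from 13.7 to 1.59 for Pomc without submissive female 3. Without dominant female 3 it went from 11.7 to 0.664 for Pmch and from 7.14 to 2.87 for Trh. Dominant female 3 was the lowest of the 8 females for 5 of the 8 members, namely Cartpt, Hcrt, Pmch, Trh and Pomc. Oxt, the oxytocin gene, was also low in it, at 0.849 CPM (other dominant females up to 7.70 CPM), and its 14 hypothalamic markers summed to 8.88 CPM. The part of the dissected tissue in these values was not tested.

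The next comparison asked whether cage mates resemble each other. With rank in the model, the edgeR F test over cages called 868 of 14737 genes in males (5.89%; 22.3% at an unadjusted p under 0.05) and 11 of 14865 in females (0.074%; 5.11% unadjusted). No member was among them in either table. In males, the edgeR F test of Cartpt gave F = 2.29 and an adjusted p of 0.314, and the adjusted p of the 6 others was 0.399 to 0.979. In females, Trh (F = 5.82), Pmch (F = 4.74) and Cartpt (F = 4.49) had an unadjusted p under 0.05, with adjusted p of 0.697, 0.861 and 0.884 by the edgeR test. Without cage 3, which holds dominant female 3, the unadjusted edgeR p of Pmch went from 0.0124 to 0.755 and that of Trh from 0.00534 to 0.0339. Without cage 4, that of Cartpt went from 0.0152 to 0.482. The submissive mouse of that cage had 10.4 CPM of Cartpt, against 19.8 to 21.9 CPM in the other submissive females. Its dominant mouse, at 9.08 CPM, lay within the 7.84 to 9.29 CPM of the dominant females. Without an expression filter, Cartpt, Pmch and Trh were called in females (adjusted p = 0.0132, 0.0250 and 0.0215, edgeR), as were 99 of 19834 genes (0.499%). DESeq2's likelihood ratio test called none of the 3, with unadjusted p of 0.617, 0.285 and 0.0488.

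The female and male libraries carry different name prefixes and were deposited in separate tables, so sex and table cannot be told apart. Their comparison called 5512 of 15233 genes (36.2%; 18.4% higher and 17.8% lower in females, and 44.9% at an unadjusted p under 0.05), and 1 of the 7 members tested was among them. Gal was 1.75 ± 0.383 CPM in males (SD, n = 14) and 1.10 ± 0.397 CPM in females (SD, n = 8), and ran from 1.21 to 2.50 CPM and from 0.506 to 1.83 CPM. The tables overlapped, and the log2 difference, female minus male, was -0.67 (SE 0.167, adjusted p = 0.00262, edgeR), with -0.89 to -0.57 when any 1 library was left out. Galr1, a galanin receptor, was 2.26 ± 0.735 CPM in females (SD, n = 8) and 2.57 ± 0.512 CPM in males (SD, n = 14). Cartpt differed by -0.34 (SE 0.187, adjusted p = 0.168, edgeR), Hcrt by -0.18 (adjusted p = 0.196, edgeR), Trh by -0.11, Nts by -0.030, Pmch by -0.017 and Pomc by 0.27 (adjusted p = 0.388, edgeR). Hcrt passed the threshold only without dominant female 4 (-0.29, adjusted p = 0.0310, edgeR), and Pomc turned to -0.046 without submissive female 3. Of the midbrain and raphe markers, Slc6a4 (-1.03, adjusted p = 0.0408), Th (-0.36) and Slc6a3 (-0.36) were called lower in females by edgeR. Of the general brain markers, Snap25 (0.45) and Cx3cr1 (0.35) were called higher and Mbp (-0.25) lower in females, and Slc17a7 was called over male cages.

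The last question was whether Cartpt follows the other peptides from library to library. Log2 CPM was centred on the mean of each rank, which removes the rank contrast that chose Cartpt, and 14 relations were tested, 7 in each table, by permutation within rank. None had an adjusted p under 0.05. Cartpt and Pomc, which are made together by arcuate neurons, had the highest r, 0.690 over the 14 males (p = 0.00779, adjusted p = 0.109 by permutation; Spearman's rho 0.503, p = 0.0688, adjusted p = 0.802 by permutation). It was 0.695 without the 2 samples farthest from the median of Cartpt, 0.703 within cages 1 to 4, 0.786 within cages 5 to 7 and 0.826 over the differences between cage mates (adjusted p = 0.762, 0.583 and 0.397 by exact permutation). Without centring it was 0.6247 (adjusted p = 0.276 by permutation). Leaving out 1 male gave r from 0.597, without dominant male 4, to 0.780, without submissive male 7, and adjusted p from 0.0398, without submissive male 7, to 0.409, without dominant male 6. The threshold was passed without submissive male 7 and with no other male left out. In females r was 0.348 for Pomc (exact permutation p = 0.460) and 0.0682 without the 2 farthest samples.

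Both peptides of the lateral hypothalamus had lower r. For Hcrt, r with Cartpt was 0.126 in males and 0.286 in females, and for Pmch 0.0806 and 0.0915 (all adjusted p by permutation between 0.767 and 0.847). Trh had 0.303 in males and -0.0656 in females, Gal 0.341 and -0.150, Nts -0.246 and 0.211, and Agrp 0.524 and 0.197, the last resting on 1 to 7 reads. The signs of Trh, Gal and Nts thus differed between the tables, and that difference was not tested. Over the 7 members the median r with Cartpt was 0.303 in males and 0.197 in females, beside -0.024 and -0.0014 over the 14668 genes tested in both tables. Among the 42 pairs of the other 7 members, 21 in each table, none had an adjusted p under 0.05 over all 56 pairs either. Pmch and Trh had r = 0.885 in females, which fell to 0.205 without the 2 farthest samples. Hcrt and Pmch had r = 0.613 in males and 0.600 in females. Without the 2 samples farthest from the median of Hcrt these fell to 0.292 and 0.113.

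**Figure D4:**
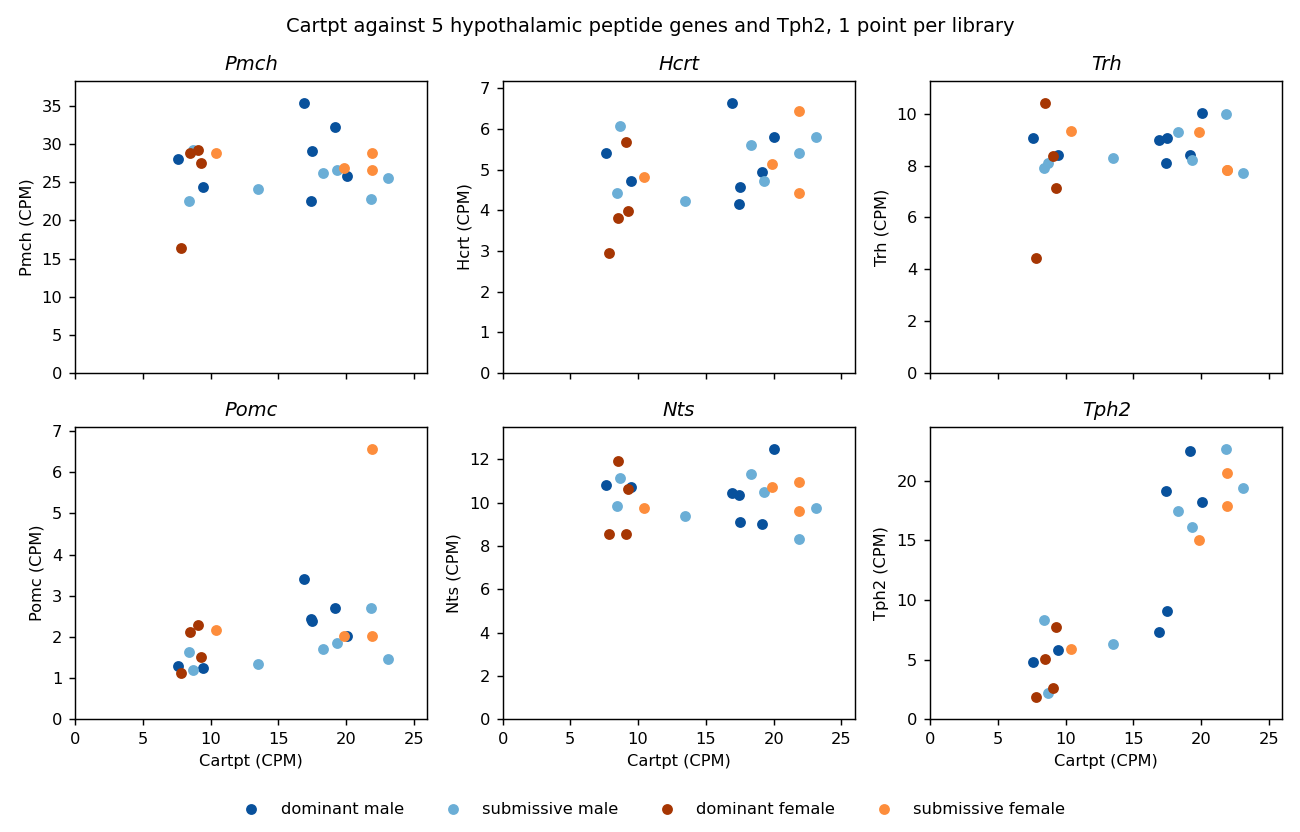
Level of Pmch, Hcrt, Trh, Pomc, Nts and Tph2 in CPM (vertical axes, linear, from 0) against Cartpt in CPM (horizontal axis), 1 point per library, coloured by group. The 4 male libraries with 7.61 to 9.46 CPM of Cartpt have 2.21 to 8.35 CPM of Tph2, and the 9 with 16.9 to 23.1 CPM have 7.29 to 22.7 CPM, while the first 3 peptides and Nts show no such order.

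Over the same libraries, Cartpt was set against 41 further listed genes in each table, 82 relations in all. Those with Tph2, the enzyme of neuronal serotonin synthesis, and Slc6a4, the serotonin transporter, were called in males. For Tph2, r was 0.836 (p = 0.00031, adjusted p = 0.0254 by permutation; rho 0.873, p = 0.00019, adjusted p = 0.0156 by permutation) and 0.901 without the 2 farthest samples. For Slc6a4, r was 0.819 (p = 0.00081, adjusted p = 0.0332 by permutation; rho 0.868, p = 0.00041, adjusted p = 0.0168 by permutation), and 0.850 without the 2 farthest samples. The Tph2 relation was 0.7999 within cages 1 to 4 and 0.927 within cages 5 to 7, and that of Slc6a4 0.786 and 0.887, with adjusted p of 0.541 and 0.451 by exact permutation for both genes. Over differences between cage mates, r was 0.724 for Tph2 and 0.694 for Slc6a4 (adjusted p = 0.446 by exact permutation for both, n = 7). The adjusted p of Tph2 exceeded 0.05 without dominant male 4 (0.102), submissive male 2 (0.0640) or submissive male 3 (0.0574, all by permutation). That of Slc6a4 did so without any of dominant males 2, 3, 4 and 7 and submissive males 2, 3, 5, 6 and 7, at most at 0.154, nor did it pass without the 2 farthest samples (0.0640 by permutation). Of the other genes in males, Oxt had r = 0.702 (p = 0.00810, adjusted p = 0.221 by permutation), or 0.670 without the 2 farthest samples. Glp1r, the receptor of the satiety peptide GLP-1, had 0.596 in males (adjusted p = 0.364 by permutation) and -0.867 in females (adjusted p = 0.427 by exact permutation), a difference between the tables that was not tested. In females, r was 0.755 for Tph2 (exact permutation p = 0.0330, adjusted p = 0.386) and 0.448 for Slc6a4 (exact permutation p = 0.0243, adjusted p = 0.364). Without submissive female 4 these were 0.646 and 0.647 (adjusted p = 0.827 by exact permutation for both). Without centring, r of Tph2 in females was 0.911. That value holds the rank contrast that chose Cartpt and is given without a test.

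Male libraries were not spread evenly, with 4 at 7.61 to 9.46 CPM of Cartpt, 1 at 13.5 CPM and 9 at 16.9 to 23.1 CPM. Over the 9 upper ones, r of Cartpt was 0.642 for Tph2, 0.697 for Slc6a4 and -0.514 for Pomc. This split was made on Cartpt itself after its values were seen and narrows its range, so these values are given without a test and do not set the 3 genes apart. In Tph2, the 4 lower libraries had 2.21 to 8.35 CPM and the 9 upper ones 7.29 to 22.7 CPM. Tph2 and Slc6a4 are also among the 3 genes that were lower in dominant females (0.0202% of genes tested), the contrast that chose Cartpt, with log2 fold changes of -1.77 each. Neither call held with edgeR's robust prior (adjusted p = 0.347 and 0.298), with all 22 samples in one edgeR fit (0.995 for both) or with a mean count of at least 50 (0.0572 for both). Nor did either hold without any 1 of dominant females 3 and 4 and submissive females 1 and 3 (adjusted p of 0.0874 to 0.140, edgeR). DESeq2, which gave an adjusted p to 5643 genes, gave none to Tph2 or Slc6a4 and so called neither. Cage mates resembled each other in both genes in males (adjusted p = 0.0328 and 0.00657, edgeR F test), and in Tph2 also in females (F = 15.2, adjusted p = 0.0401, edgeR F test), where Slc6a4 was not called (adjusted p = 0.966). With the expression filter, Cartpt was called over cages in neither table. Ucn, which did not pass the filter, had r = 0.709 with Cartpt in males and 0.916 in females at 0 to 15 reads per library, too few to read as a relation. Fev, at 0 to 2 reads per library, had 0.421 and -0.919. Th and Slc6a3, the remaining markers of that list, had r of 0.0675 and 0.169 in males and -0.116 and 0.299 in females.

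By the smaller of its r in males and in females, Tph2 was the most like Cartpt of the 14668 genes tested in both tables (14 and 8 libraries, rank-centred). The next were Caskin1 (r = 0.749 in males and 0.737 in females), Gaa (0.735 and 0.742), Hsf1 (0.849 and 0.732), Slc17a8 (0.705 and 0.773) and Gch1 (0.789 and 0.693). Gaa is the lysosomal glucosidase, Hsf1 a heat shock transcription factor, Slc17a8 the vesicular glutamate transporter VGLUT3 and Gch1 the first enzyme of tetrahydrobiopterin synthesis. These are the highest of many values and carry no test, and in females Gch1 fell to 0.309 without the 2 farthest samples. By the same measure Pomc held place 508, Hcrt 2089, Pmch 2581, Trh 4846, Gal 6459 and Nts 8408, all below Tph2. Without submissive female 4, r of Tph2 in females was 0.646. The variance of Cartpt in females over that from counting alone was then 0.869, against 13.7 with it. The places were not computed without that library.

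**Figure D5:**
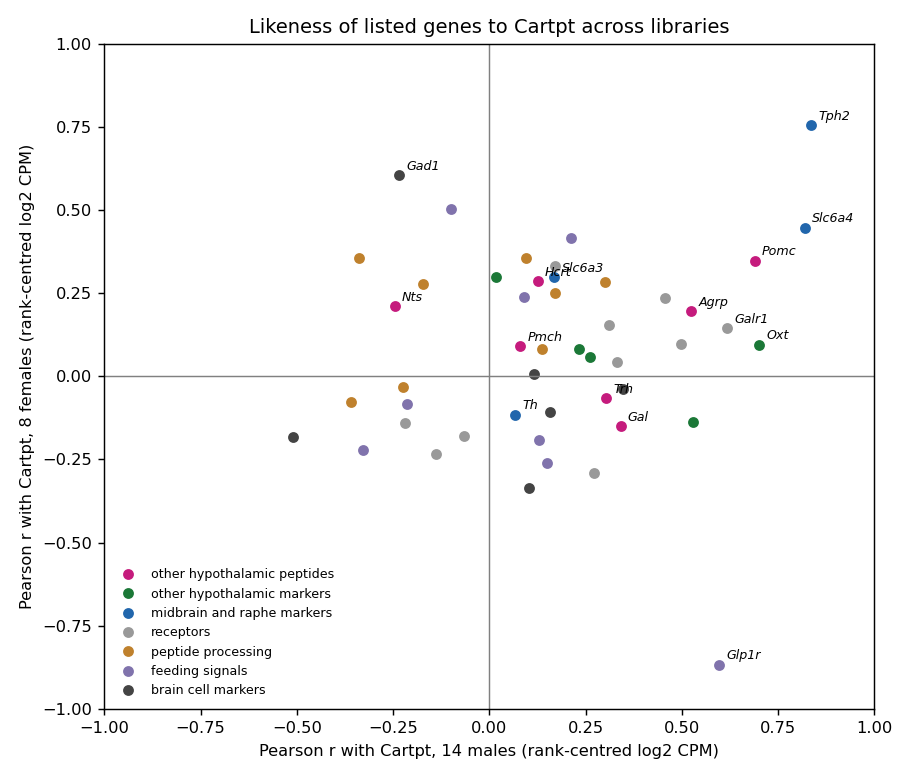
Pearson r of rank-centred log2 CPM with Cartpt over 14 males (horizontal axis) and 8 females (vertical axis), 1 point per gene, coloured by list. Tph2 (0.836 and 0.755) and Slc6a4 (0.819 and 0.448) lie at the upper right, and Pomc (0.690 and 0.348) is the nearest of the peptides. The other peptides lie between -0.246 and 0.524 in males and between -0.150 and 0.286 in females.

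The partners of the peptides were read from the same fits. Of 12 receptors, 10 passed the filter, and none was called for rank in either table. Hcrtr1, an orexin receptor, had the smallest p in males, with a log2 fold change of 0.46 (SE 0.196, adjusted p = 0.9999, edgeR) beside -0.24 in females. Galr1 had the smallest in females, at -0.53 (SE 0.226, adjusted p = 0.418, edgeR), with 1.85 ± 0.607 CPM in dominant against 2.67 ± 0.664 CPM in submissive females (SD, n = 4). Mc4r, the melanocortin receptor tied to satiety, had -0.31 in females and 0.11 in males. Ntsr2, a neurotensin receptor, was the receptor called between the tables, higher in females by 0.30 on the log2 scale (SE 0.0411, adjusted p = 2.92e-06, edgeR).

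All 8 genes of peptide processing passed the filter, and none was called for rank. Pcsk1n, which encodes the inhibitor proSAAS of a prohormone convertase, came nearest in females, at -0.27 (SE 0.0716, adjusted p = 0.165, edgeR), with 79.9 ± 7.79 CPM in dominant against 96.0 ± 11.8 CPM in submissive females (SD, n = 4). It was called over cages in females (adjusted p = 0.0338, edgeR F test) and was higher in females than in males by 0.72 (SE 0.0755, adjusted p = 4.00e-08, edgeR). Cpe, the carboxypeptidase that trims peptide precursors, was called between the tables (0.18 higher in females, adjusted p = 0.000949, edgeR) and over male cages (adjusted p = 0.00726, edgeR F test). Scg5, a chaperone of convertase Pcsk2, had the smallest p in males, with 0.071 (SE 0.0460).

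Of the 8 feeding signals, among them Npy and the leptin receptor Lepr, none was called for rank. Insr, the insulin receptor, had 0.077 and Lepr -0.17 in females (adjusted p = 0.523 and 0.502, edgeR), and Npy2r had 0.13 in males. Between the tables Npy1r was higher (0.16, adjusted p = 0.0316, edgeR) and Insr lower (-0.18, adjusted p = 0.0112, edgeR) in females, and Insr was called over male cages (adjusted p = 0.0201, edgeR F test). Of the 14 other hypothalamic markers 5 passed the filter in each table and none was called. All 5 were negative in females and 4 of 5 in males, with medians of -0.27 and -0.15. Without dominant female 3, in which these markers were low, 4 of 5 were negative in females and the median was -0.053. Oxt had the largest difference in females, -0.86 (SE 0.306, adjusted p = 0.302, edgeR), with 4.38 ± 3.02 CPM in dominant against 7.98 ± 2.11 CPM in submissive females (SD, n = 4), and it was -0.53 (adjusted p = 0.567, edgeR) without dominant female 3. Hdc, the histamine enzyme, had -0.29. In males Crh had -0.20 and Sim1 -0.19 (adjusted p = 0.9999 for both, edgeR).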

How the data were processed

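Total RNA of 22 right hemispheres was sequenced after removal of ribosomal RNA. Per the submitters' processing notes and the paper, reads were checked with FastQC 0.11.8, trimmed with cutadapt 1.15 and bbduk, mapped to mm10 with STAR 2.6.0a and assigned to genes with featureCounts 1.6.2. Raw counts per gene without normalization were deposited, in a male and a female table, and 0 columns were left unused. How multi-mapping reads were counted is not given in the sources used here.

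CPM and log2 CPM (prior count 2) were computed within each table with TMM factors. Rank was tested with edgeR 4.0.16 (R 4.3.3, quasi-likelihood, filter of 10 counts and 15 in total, Benjamini-Hochberg adjustment, threshold 0.05) within each table, with rank as the only term. The interaction and the table comparison used all 22 libraries with a mean for each group, and cage was tested by an F test with rank in the model. DESeq2 1.42.0 was an alternative. Relations across libraries were tested by two-sided permutation within rank, with 100000 draws in males and all 576 assignments in females (NumPy 2.4.6). The fits were tested on simulated data.

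The 8 members and all gene lists were chosen with earlier results of these data known. Named genes were the members, the listed genes called in any test, for each list the 2 with the smallest p in each rank test otherwise, and the 6 genes most like Cartpt. Alternatives were DESeq2 and its size factors, other filters, the robust prior, the replicate block, removal of a loess trend (span 0.3) with exon length or with GC content (known for 23350 genes, 95.6%), single libraries or cages left out, another prior count (0.5) and relations without centring. Added after seeing the data were the fits within pairs of female cages, the alternatives for Tph2 and Slc6a4, and the midbrain sum without these genes.

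Replicate numbers pair the samples, because same-numbered libraries carry the same cage in their names and the paper states that cage mates were sacrificed together. With group means removed, cage mates correlated across genes at 0.177 on average in males (other pairs, -0.0293) and at 0.0239 in females (other pairs, -0.00798). The mean chi-square per gene between libraries of 1 group was 1.81 to 16.6, so all libraries were kept as separate samples. The p-values measure the spread between single mice. Promoter sequences came from RefSeq (GRCm38.p6), where 7 of the 8 members matched. Gene coordinates and exon ends came from the annotation deposited with the counts. The letters and coding state of the long-form stretch came from GENCODE M21.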

Additional observations from a re-analysis of the deposited data

Results flagged for a closer look

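Of 32 groups of samples (8 members in 4 groups), 3 held a library far from the others by Dixon's criterion at 95%, where chance alone flags about 1 group in 20. Pmch was 16.4 CPM in dominant female 3, while the other 3 dominant females lay between 27.5 and 29.2 CPM. Pomc was 6.57 CPM in submissive female 3, while the other 3 submissive females lay between 2.01 and 2.16 CPM. Gal was 2.35 CPM in dominant male 2, while the other 6 dominant males lay between 1.21 and 1.70 CPM. Both female libraries come from cage 3, the group labelled Gr1.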

How the results depend on the processing

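The female rank comparison gave 14 calls, and 0 (579 at an unadjusted p under 0.05) with all 22 samples in one fit, 77 with DESeq2, 2 with a mean count of at least 50, 84 without a filter, 5 within female cages 1 and 2 and 120 within female cages 3 and 4. With the replicate block it gave 36, with the block and the GC trend removed 51, and with the block and the length trend removed 8. The pairing by cage changed no call of a member. Leaving out 1 female gave 0 to 77 calls: 7, 77, 1 and 3 without dominant females 1 to 4, and 0, 27, 0 and 3 without submissive females 1 to 4. The female cage test gave 11 calls, 5 with DESeq2's likelihood ratio test, 99 without a filter and 2 to 31 without 1 cage (31 without cage 2, 2 without cage 3). The male cage test gave 868, and 375 to 1841 without 1 cage, with 1841 without cage 1 and 375 without cage 6. The causes were not tested. The male rank comparison and the interaction kept 0 calls, and the table comparison gave 4917 to 5773 calls, under the alternatives run.

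Signs that turned belonged to log2 fold changes or correlations that passed no threshold. The rank difference turned for Hcrt in males with the block and the GC trend removed (0.0055), for Pmch (0.019), Trh (0.039) and Nts (0.15) within female cages 1 and 2, and for Gal (0.050) within female cages 3 and 4. Leaving out 1 library, it ran from -0.17 to 0.046 for Cartpt and -0.077 to 0.038 for Hcrt in males, and in females from -0.19 to 0.037 for Pmch, -0.37 to 0.013 for Trh, -0.64 to 0.0088 for Gal and -0.15 to 0.020 for Nts. The interaction of Gal ran from -0.39 to 0.26, and the table difference from -0.062 to 0.053 for Pmch and -0.046 to 0.34 for Pomc. For Cartpt in females, r turned without centring with Trh (0.251) and Gal (0.203), and with Trh (0.154) without the 2 farthest samples. In males it turned with Pmch (-0.048) without the 2 farthest samples, and with Hcrt (-0.382) and Gal (-0.329) within male cages 5 to 7. Leaving out 1 library, r with Cartpt ran from -0.0170 to 0.324 for Hcrt and -0.0473 to 0.278 for Pmch in males, and in females from -0.480 to 0.736 for Pmch, -0.455 to 0.359 for Trh and -0.379 to 0.564 for Agrp. Of the 7 peptides, 0 to 1 was called in males when 1 library was left out, the 1 being Pomc. Agrp rests on 1 to 7 reads per library, the lowest depth of the members.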
